A study of Homo sapiens with 8 samples.

Results

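This account describes 80 genes whose array intensity was lower after 24 h of interferon-beta (IFN-β) than before it, in U6A cells carrying wild-type STAT2 and in U6A cells carrying STAT2 with the T387A substitution. They were chosen by their values. Each named gene was represented by its brightest probe, the intensity at 0 h had to be 100 or more in both lines, and the 24 h/0 h ratio had to be 0.7 or less in each line. CD59, histone, heat shock protein, matrix metalloproteinase and metallothionein genes and listed S-phase and mitosis genes were left out. The 80 genes are 1.44% of the 5550 genes that were bright enough to be eligible, out of 20045 genes with a named probe. Before those exclusions 83 genes, or 1.5% of the eligible ones, met the ratio, and the 3 removed were CD59 and the kinesins KIF1B and KIF3B, which carry cargo within the cell but share the excluded KIF symbol. The mirrored rule, a ratio of at least 1.43 in each line, was met by 93 genes, or 1.68%. Since the 0 h and 24 h values chose the genes, those values are given below as a description and without a test.

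The U6A line comes from human fibrosarcoma cells and has no STAT2 of its own, and 2 derivatives of it expressed STAT2, either wild type or T387A. The cells were grown in DMEM with 5% serum and received IFN-β at 100 IU/ml for 4, 8 or 24 h, with an untreated culture as 0 h. There was 1 array for each line and time, so 8 in all, and no replicate of any of them. All arrays therefore share the absence of endogenous STAT2, and the labels do not say whether a derivative is 1 clone or a pool. Each genotype is 1 derivative, so genotype and derivative cannot be told apart. Time in culture and exposure to IFN-β cannot be told apart either, because the untreated arrays are all from 0 h. In RNA from a whole culture, less RNA per cell and fewer cells with that RNA also cannot be told apart.

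Type I interferons bind a receptor whose kinases phosphorylate STAT2. With IRF9 it then enters the nucleus, where interferon-stimulated response elements are bound and antiviral genes activated. Interferon treatment is also known to lower some transcripts, which has been studied less than induction. The genes described here span many functions, among them lipid and iron metabolism, protein synthesis, the cytoskeleton, the extracellular matrix and intracellular signalling.

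Array sums ran from 10093323 to 10094142, so all arrays had been brought to 1 scale before deposit. Precision is limited by the number of arrays. The median residual SD of the 80 genes in an additive fit of line and time was 0.11 on the log2 scale (range 0.037 to 0.37), which makes the SD of a difference between a pair of arrays 0.16. STAT2 itself was not analysed here. Of 10 mesenchymal markers, 7 read 100 or more on all arrays, with vimentin (VIM) at 5466 to 8642. FN1 (8.3 to 44.8), S100A4 (62.1 to 95.1) and NT5E (at most 1.3) did not. None of 6 epithelial and 4 endothelial markers did, while of 5 leukocyte markers LCP1, the actin bundler L-plastin, read 2707 to 3925.

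The sequence before the transcription start is shown for 4 of the genes, because they show contrasting time courses: ACO1 and DANCR read lower at each successive time in both lines, while JUP and GNG2 were lowest or close to it by 4 h. The 250 bases are from RefSeq on GRCh38.p14, written 5′ to 3′ on the gene's strand, and capitals mark every match on either strand to a GC box, a CCAAT box, an AP-1 site or an interferon-gamma activated site, as spelled out in the next paragraph. None of the 4 windows held a TATA box, E-box, E2F site or interferon-stimulated response element core. ACO1 lies at chr9:32384393-32384642 on the plus strand, DANCR at chr4:52712144-52712393 on the plus strand, JUP at chr17:41786712-41786961 on the minus strand and GNG2 at chr14:51825924-51826173 on the plus strand.
ACO1: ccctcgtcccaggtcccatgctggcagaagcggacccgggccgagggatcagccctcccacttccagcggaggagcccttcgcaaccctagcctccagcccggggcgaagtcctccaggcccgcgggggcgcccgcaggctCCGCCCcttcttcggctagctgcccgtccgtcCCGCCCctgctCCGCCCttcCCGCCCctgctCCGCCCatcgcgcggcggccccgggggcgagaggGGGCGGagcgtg
DANCR: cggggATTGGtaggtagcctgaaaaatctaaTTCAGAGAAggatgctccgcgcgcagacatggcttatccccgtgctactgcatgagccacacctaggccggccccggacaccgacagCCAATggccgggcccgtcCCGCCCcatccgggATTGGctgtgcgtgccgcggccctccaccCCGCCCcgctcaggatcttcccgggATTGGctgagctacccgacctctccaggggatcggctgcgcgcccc
JUP: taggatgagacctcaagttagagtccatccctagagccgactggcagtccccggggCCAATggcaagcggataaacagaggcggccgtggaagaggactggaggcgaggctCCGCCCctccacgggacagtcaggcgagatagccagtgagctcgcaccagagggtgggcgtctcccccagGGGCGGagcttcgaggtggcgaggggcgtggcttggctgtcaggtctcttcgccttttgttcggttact
GNG2: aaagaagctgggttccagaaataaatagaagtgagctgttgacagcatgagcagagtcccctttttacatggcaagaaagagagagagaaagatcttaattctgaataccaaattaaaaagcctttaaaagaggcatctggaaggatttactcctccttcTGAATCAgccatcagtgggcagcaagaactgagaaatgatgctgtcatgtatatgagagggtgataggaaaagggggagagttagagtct
The ACO1 window held 6 GC boxes, DANCR 4 CCAAT boxes, 2 GC boxes and 1 interferon-gamma activated site, JUP 1 CCAAT box and 2 GC boxes, and GNG2 1 AP-1 site.

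Promoters of 71 of the 80 genes were listed, each 250 bases before to 50 after the start, and motifs were searched on both strands. A GC box, spelled GGGCGG, occurred in 76.1% of them, against 71.5% of 4691 promoters of eligible genes and 44.5% of all 27305 promoters. The core of the interferon-stimulated response element, which is GAAA, any 2 bases and GAAA again, occurred in 1, SGO2 (1.41%, against 2.84% of eligible genes' promoters and 3.66% of all). The interferon-gamma activated site, TTCNNNGAA, occurred in 1, DANCR (1.41%, against 6.12 and 7.88%). The E2F site, TTTNGCGC, occurred in 0 of the 71, against 3.3 and 1.81%. The CCAAT box was found in 36.6% (38.7 and 35.7%). The TATA box, read as TATAAA, was found in 5.63% (5.5 and 12%). The E-box, read as CACGTG, was found in 14.1% (11 and 7.41%). The AP-1 site, read as TGANTCA, was found in 4.23% (4.39 and 7.72%). The cAMP response motif, read as TGACG, was found in 36.6% (37 and 25%). The TEAD site, read as GGAATG, was found in 12.7% (10.7 and 14.1%). The cell cycle homology region, read as TTTGAA, was found in 14.1% (9.44 and 15.5%). Overlapping matches to different motifs were each counted. The median GC content was 66% in these promoters and 65% in those of eligible genes. A match is a run of letters and says nothing about binding.

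Few of these genes had passed the same ratio at the earlier times, although most read below 0 h by 8 h. At 4 h, 5 of the 80 (6.25%) were at 0.7 or less of their 0 h level in both lines, beside 2.76% of the eligible genes. At 8 h there were 13 (16.2%), beside 1.68%. JUP, GNG2 and CREB3L2 were at 0.7 or less at both times, COTL1 and CHP1 at 4 h but not 8 h, and 10 genes at 8 h but not 4 h: ACO1, DANCR, NT5DC2, SH3PXD2A, ITPR1, MEF2D, HSF2BP, MAP2K5, CPD and DNAAF3. The other 65 were above 0.7 in at least 1 line at both earlier times. Those counts depend on the ratio, since more of the 80 passed at 4 h at a ratio of 0.8 and fewer at 0.6. Without a ratio, 70 of the 80 (87.5%, beside 54.2% of the eligible genes) read below 0 h at 8 h in wild-type cells and 74 (92.5%, beside 62.3%) in T387A cells. At least 50% of the log2 difference at 24 h was present by 8 h in 32 genes in wild-type and 33 in T387A cells. By the ratio of 0.7 the name "genes still lowered at 24 h" thus applies to 15 of them, and they are called genes lowered at 24 h here. These comparisons share the 0 h arrays with the choice of the genes and are not independent of it.

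The median log2 difference from 0 h was -0.17 at 4 h, -0.31 at 8 h and -0.65 at 24 h in wild-type cells. In T387A cells it was -0.18, -0.38 and -0.84. Over the eligible genes it lay between -0.072 and -0.0039 at these times in both lines. At 24 h, 71 of the 80 (88.8%) read below 8 h in both lines, beside 31.4% of the eligible genes. The genes were chosen for low 24 h values, so nothing is read from that count or from the other comparisons with 24 h here. The exceptions were DNAAF3, GET1, GNG2, HSF2BP, JUP, LRBA, MAP2K5, MEF2D and SH3PXD2A. In 38 of the 80 the log2 difference between 24 and 8 h was larger downward than that between 8 and 0 h in both lines. A lower reading at each time than at the one before, in both lines, occurred in 24 (30%, beside 1.06% of the eligible genes). The opposite start, a 4 h level above 0 h in both lines, occurred in 12 (15%, beside 32.9%): CERK, PDK3, LPP, ODC1, ZNF106, PPIA, RBBP4, BRI3BP, AHNAK2, SGO2, MRPS16 and DDX3X. The 24 h level was lower than at 0 h by 1 or more on the log2 scale in 8 genes in wild-type cells, in 23 in T387A cells and in 6 in both.

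**Figure D1:**
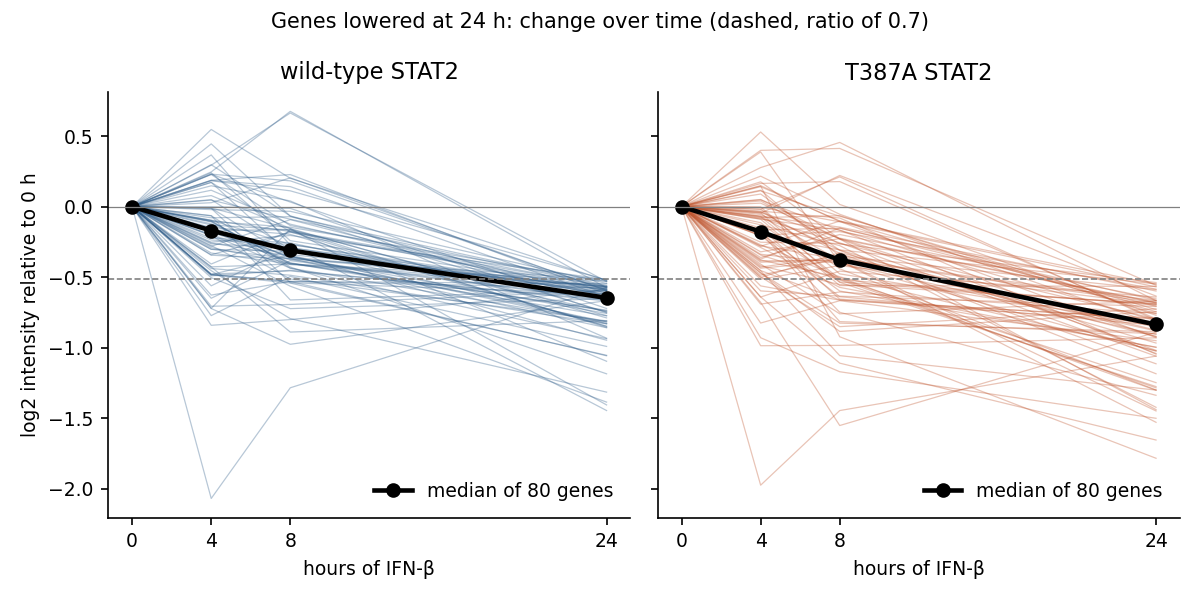
Log2 intensity relative to 0 h (vertical axis) at 0, 4, 8 and 24 h of IFN-β (horizontal axis) for the 80 genes, with 1 thin line per gene, wild-type STAT2 on the left and T387A on the right. The black line is the median of the 80, which reached -0.65 and -0.84 at 24 h, and the dashed line is the ratio of 0.7 that chose the genes at 24 h.

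Metabolism supplied 9 genes, including the 3 with the lowest 24 h levels relative to 0 h by the mean log2 over both lines. CERK, ceramide kinase, makes ceramide 1-phosphate. CERK intensities at 0, 4, 8 and 24 h were 323, 417, 267 and 119 in wild-type cells and 298.5, 330.2, 157 and 86.6 in T387A cells. Its level was highest at 4 h and lowest at 24 h in both lines. The 24 h/0 h ratios of 0.367 and 0.29 were the lowest of the eligible genes in each line. ACO1 is the cytosolic aconitase and also the iron-responsive RNA-binding protein IRP1. In wild-type cells ACO1 read 1529, 1115, 881 and 614 at 0, 4, 8 and 24 h, and in T387A cells 1325, 849.8, 614 and 420.5. Each later time was lower than the one before, and the lines did not cross at any time. PDK3, a kinase that inactivates pyruvate dehydrogenase, followed another course. The PDK3 probe read 201, 212, 180.5 and 75.8 over the 4 times in wild-type cells and 129.7, 146.5, 111 and 47.8 in T387A cells. It was above its 0 h level at 4 h, slightly below it at 8 h and at ratios of 0.377 and 0.369 by 24 h.

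ODC1, ornithine decarboxylase, catalyses the first committed step of polyamine synthesis. ODC1 gave 2256.5, 3072, 2153.5 and 1343 at the 4 times in wild-type cells, and T387A cells gave 2110.3, 2761, 1600.0 and 1125. As with CERK, the 4 h level was the highest and the 24 h level the lowest in both lines. BCAT1, the cytosolic branched-chain amino acid transaminase, read lower at each step. BCAT1 intensities at 0, 4, 8 and 24 h were 1382, 1121, 1070.1 and 762 in wild-type cells and 1538.5, 1217, 1164 and 756 in T387A cells. The T387A value was above the wild-type value until 8 h and just below it at 24 h. The other metabolic members were SUGCT and GRHPR, enzymes of glutarate and glyoxylate handling, ADO, a cysteamine dioxygenase, and LYRM7, an assembly factor of respiratory complex III. Their ratios at 24 h lay between 0.503 (SUGCT, wild type) and 0.684 (ADO, T387A). The median of the 9 metabolic genes over both lines was -0.20 at 4 h, -0.34 at 8 h and -0.94 at 24 h on the log2 scale.

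Protein synthesis and RNA handling supplied 8 genes. EIF4B, a cofactor of the helicase that prepares mRNA for ribosomes, had the highest mean intensity of the 80 over the 8 arrays. In wild-type cells EIF4B read 2802, 2528, 2444 and 1555 at 0, 4, 8 and 24 h, and in T387A cells 3005, 2311, 2121 and 1218. The level at 24 h was the lowest in each line, at ratios of 0.555 and 0.405. EIF3F, a subunit of the initiation factor that recruits the small ribosomal subunit, sat just inside the threshold. The EIF3F probe read 2132, 1789.9, 1849.7 and 1489 over the 4 times in wild-type cells and 2381, 1839, 2143 and 1459 in T387A cells. Its 8 h level was above its 4 h level in both lines. DDX3X, an RNA helicase of translation and of antiviral signalling, had the highest mean 4 h level relative to 0 h of the 80. DDX3X gave 796, 1164, 915 and 554 at the 4 times in wild-type cells, and T387A cells gave 674, 888, 897 and 457. Both lines read above 0 h at 4 and 8 h and below it at 24 h.

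RPS23, a protein of the small ribosomal subunit, showed the largest difference between the lines in its 24 h ratio on the log2 scale. RPS23 intensities at 0, 4, 8 and 24 h were 621, 511, 582.5 and 392 in wild-type cells and 725, 535.5, 555.5 and 251 in T387A cells. The ratios were 0.631 and 0.346. RPL37, of the large subunit, read 0.593 and 0.641. Of 34 ribosomal protein genes at 100 or more, these were the only 2 that met the rule, and the medians of the 34 at 24 h were -0.073 and -0.094 on the log2 scale. Ribosomal protein genes, PPIA and the pseudogene HNRNPA1P10 have near-identical copies elsewhere in the genome, so their probes may read more than 1 gene. The remaining members of this group were ASCC3, a helicase of the complex that clears stalled ribosomes, MRPS16, a mitochondrial ribosomal protein, and HNRNPA1P10 itself. The 8 genes had a median of -0.28 at 4 h, -0.24 at 8 h and -0.66 at 24 h.

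The cytoskeleton and adhesion group held 9 genes. JUP, plakoglobin, links cadherins to the cytoskeleton at desmosomes and adherens junctions. In wild-type cells JUP read 276, 65.8, 113 and 186 at 0, 4, 8 and 24 h, and in T387A cells 229, 58.2, 84 and 109.8. It was lowest at 4 h, at log2 differences of -2.07 and -1.98, the lowest of the 5550 eligible genes at that time in each line. From there it read higher at each time without reaching its 0 h level. Of 10 junction and cadherin genes at 100 or more, JUP alone met the 24 h rule. Its other 2 probes were too dim to compare.

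AHNAK, a giant scaffold protein under the plasma membrane, was lower at 24 h in wild-type cells than in T387A cells relative to 0 h. The AHNAK probe read 1387, 1326, 1030.3 and 609 over the 4 times in wild-type cells and 896, 968, 855 and 540.0 in T387A cells. The 0 h levels of the lines differed more than the 24 h levels did. Its relative AHNAK2 differed between the lines throughout. AHNAK2 gave 187, 203, 172 and 120.0 at the 4 times in wild-type cells, and T387A cells gave 132, 143, 103 and 87.7. Every T387A array was below the wild-type array of its time. SH3PXD2A, the podosome scaffold TKS5, reached its low level by 8 h. SH3PXD2A intensities at 0, 4, 8 and 24 h were 249, 185, 134 and 142 in wild-type cells and 216, 158, 104 and 87.7 in T387A cells. The 24 h value was slightly above the 8 h value in wild-type cells and below it in T387A cells.

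COTL1, an actin-binding protein, was lowest at 24 h and next to lowest at 4 h. In wild-type cells COTL1 read 278, 168, 248 and 162 at 0, 4, 8 and 24 h, and in T387A cells 269, 152, 169 and 139. The level at 8 h was above that at 4 h in both lines. MSN, moesin, joins actin to membrane proteins and was the nearest of the 80 to the threshold, at ratios of 0.699 and 0.631. The MSN probe read 1359, 1070.3, 1051 and 950.1 over the 4 times in wild-type cells and 1584, 1413, 1424 and 999.7 in T387A cells. NAV1, a microtubule-associated protein, was lower mainly at 24 h. NAV1 gave 221, 202, 197 and 103 at the 4 times in wild-type cells, and T387A cells gave 191, 175, 158 and 71.3. LPP, a focal adhesion protein, had almost the same 24 h ratio in both lines, 0.524 and 0.525, and FRMD4A, a scaffold of epithelial polarity, had 0.518 and 0.675. The median of the 9 genes was -0.25 at 4 h, -0.26 at 8 h and -0.86 at 24 h.

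Matrix components, ligands and large surface proteins numbered 8. FBN2, fibrillin-2, forms microfibrils. FBN2 intensities at 0, 4, 8 and 24 h were 196.5, 173, 154 and 111.5 in wild-type cells and 171, 169, 126 and 69.3 in T387A cells. VCAN, the proteoglycan versican, was lower in T387A than in wild-type cells at every time. In wild-type cells VCAN read 383, 302.5, 338 and 256 at 0, 4, 8 and 24 h, and in T387A cells 251, 186, 196.5 and 132. The highest T387A value of VCAN was below the lowest wild-type value. These were the only 2 of 16 matrix genes at 100 or more that met the rule, and the medians of the 16 at 24 h were -0.070 and -0.17.

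WNT5A, a ligand of mostly β-catenin-independent Wnt signalling, differed between the lines in its course. The WNT5A probe read 144, 142, 141 and 98.7 over the 4 times in wild-type cells and 203, 180.2, 121 and 80.3 in T387A cells. The wild-type level stayed near 0 h until 8 h, whereas the T387A level was already lower at 8 h. BMP6, a ligand of the TGF-β superfamily that regulates iron through hepcidin in liver, had ratios of 0.579 and 0.493 at 24 h. BMP6 gave 171, 169.5, 153 and 98.7 at the 4 times in wild-type cells, and T387A cells gave 132, 137, 112.5 and 65.1. FAT1, a giant cadherin, had ratios of 0.601 and 0.623, HEG1, a mucin-like receptor, 0.597 and 0.591, TENM3, a teneurin adhesion receptor, 0.651 and 0.486, and F12, coagulation factor XII, 0.673 and 0.624. The median of the 8 was -0.069 at 4 h, -0.28 at 8 h and -0.79 at 24 h.

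Signal transduction supplied 10 genes. GNG2, a gamma subunit of heterotrimeric G proteins, was low from 4 h onward. GNG2 intensities at 0, 4, 8 and 24 h were 131, 73.3, 75.4 and 87.2 in wild-type cells and 120.3, 60.7, 60.8 and 63.1 in T387A cells. All 6 treated arrays lay below both 0 h arrays. Of 18 G protein and cAMP signalling genes at 100 or more, GNG2 alone met the rule. PPM1L, a protein phosphatase of stress kinase and ceramide transport pathways, had ratios of 0.552 and 0.366. In wild-type cells PPM1L read 143, 127.5, 128 and 79.1 at 0, 4, 8 and 24 h, and in T387A cells 121, 115, 92.9 and 44.3. PRKCA, protein kinase C alpha, had ratios of 0.657 and 0.421. The PRKCA probe read 948.5, 981, 768 and 623 over the 4 times in wild-type cells and 831, 790.4, 583 and 349.7 in T387A cells. For both genes the ratio between the lines was wider at 24 h than at 0 h. PLCB1, a phospholipase C, and ITPR1, the inositol trisphosphate receptor that releases calcium, belong to the same calcium pathway and had ratios of 0.562 and 0.565, and 0.48 and 0.612. CHP1, a calcineurin-like calcium sensor, was lowest at 24 h but had been close to that level at 4 h. CHP1 gave 829.8, 529, 636 and 525 at the 4 times in wild-type cells, and T387A cells gave 684, 478.5, 512 and 423. PTPN14, a phosphatase that restrains YAP, had ratios of 0.632 and 0.501, and the remaining members were MAP2K5 (a kinase that activates ERK5), MAPKAP1 (a subunit of mTOR complex 2) and BCL10, an adaptor of NF-κB signalling. The median of the 10 was -0.37 at 4 h, -0.51 at 8 h and -0.79 at 24 h.

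Chromatin, DNA repair and transcription supplied 10 genes. PRKDC, the catalytic subunit of DNA-dependent protein kinase, was lower at each step in both lines. PRKDC intensities at 0, 4, 8 and 24 h were 269, 251, 199 and 140.5 in wild-type cells and 300.2, 277, 207 and 124 in T387A cells. The T387A value was the higher at 0, 4 and 8 h and the lower at 24 h. TBL1XR1, a corepressor subunit, was at or above its 0 h level at 4 h. In wild-type cells TBL1XR1 read 134, 151, 106 and 90.2 at 0, 4, 8 and 24 h, and in T387A cells 133.5, 133, 95.9 and 74.7. RBBP4, a histone-binding subunit of several chromatin complexes, was higher at 4 h than at 0 h in both lines. The RBBP4 probe read 189.5, 222, 215 and 126 over the 4 times in wild-type cells and 168, 242, 169 and 98.2 in T387A cells. EP400, a chromatin remodeller, OGG1, a glycosylase that removes oxidised guanine, and TOP2B, a DNA topoisomerase, had wild-type ratios of 0.57, 0.563 and 0.693. CREB3L2, a membrane-bound transcription factor, was low at all 3 treated times. CREB3L2 gave 684, 443, 473.5 and 468 at the 4 times in wild-type cells, and T387A cells gave 661, 448, 417 and 382. MEF2D and HSF2BP were lowest at 8 h in both lines. The median of the 10 was -0.14 at 4 h, -0.40 at 8 h and -0.70 at 24 h.

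SGO2, which protects centromeric cohesion, and PRR11, a cell cycle gene, are linked to mitosis but are not among the excluded symbols. SGO2 intensities at 0, 4, 8 and 24 h were 147.5, 167.5, 159 and 103 in wild-type cells and 155.5, 188, 213 and 97.9 in T387A cells. In wild-type cells PRR11 read 101, 119.9, 161.5 and 67.8 at 0, 4, 8 and 24 h, and in T387A cells 143, 141, 165.5 and 81.8. Both were at their highest at 4 or 8 h and at their lowest at 24 h in both lines. Of 37 other mitosis genes at 100 or more, none met the rule. Their median over both lines was 0.25 at 4 h, and at 24 h it was -0.071 in wild-type and -0.12 in T387A cells.

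The secretory pathway and membrane transport supplied 10 genes. TXNDC12, an oxidoreductase of the endoplasmic reticulum, was the brightest. The TXNDC12 probe read 2187, 1613, 1561 and 1228 over the 4 times in wild-type cells and 2202, 1801, 1480.3 and 1102 in T387A cells. It read lower at each step in both lines. GET1, a receptor for tail-anchored proteins, had the largest residual SD of the 80, 0.37, and its T387A level was lowest at 8 h. GET1 gave 127, 104, 96.0 and 74.1 at the 4 times in wild-type cells, and T387A cells gave 169.9, 106, 57.9 and 91.6. SLC12A2, a sodium, potassium and chloride cotransporter, had ratios of 0.65 and 0.543 and was the only member among 12 listed transporters at 100 or more. ABCC4, an efflux pump, KCNMA1, a large-conductance potassium channel, and CPD, a carboxypeptidase of the Golgi, had wild-type ratios of 0.591, 0.655 and 0.652. The rest were SLC35B4, GXYLT1, RAB3B and SYS1, and the median of the 10 was -0.25 at 4 h, -0.39 at 8 h and -0.75 at 24 h.

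Ubiquitin and protein folding genes were UBE4B and TTC3, which are ubiquitin ligases, UBL3, a ubiquitin-like membrane protein, and PPIA, cyclophilin A. UBL3 was lower at each step in both lines. UBL3 intensities at 0, 4, 8 and 24 h were 158, 147, 119 and 105 in wild-type cells and 151, 147, 104.5 and 93.6 in T387A cells. PPIA read 0.643 and 0.576 of its 0 h level at 24 h. The 4 had a median of -0.11 at 4 h, -0.35 at 8 h and -0.74 at 24 h. The last 12 genes are of other or less certain roles. DANCR, a long noncoding RNA and host of small nucleolar RNAs, had the lowest mean among them, at ratios of 0.382 and 0.41. In wild-type cells DANCR read 438, 361.5, 296 and 167 at 0, 4, 8 and 24 h, and in T387A cells 293, 261, 204 and 120.2. It stepped down with each time in both lines, and each T387A value was below the wild-type value of its time. NT5DC2, a member of the 5′-nucleotidase family, was lower at each time in both lines. The NT5DC2 probe read 560.1, 400.3, 385 and 269.6 over the 4 times in wild-type cells and 678, 356, 301 and 239.5 in T387A cells. LRBA, ZNF106, FAM168B, DPCD, DNAAF3, NRIP3, BRI3BP and TMEM19 had ratios between 0.44 (FAM168B, T387A) and 0.692 (NRIP3, wild type). LINC00938, at 0.667 and 0.535, is the other noncoding RNA. With HNRNPA1P10 of the RNA handling group as the only pseudogene, the remaining 77 of the 80 are protein coding.

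**Figure D2:**
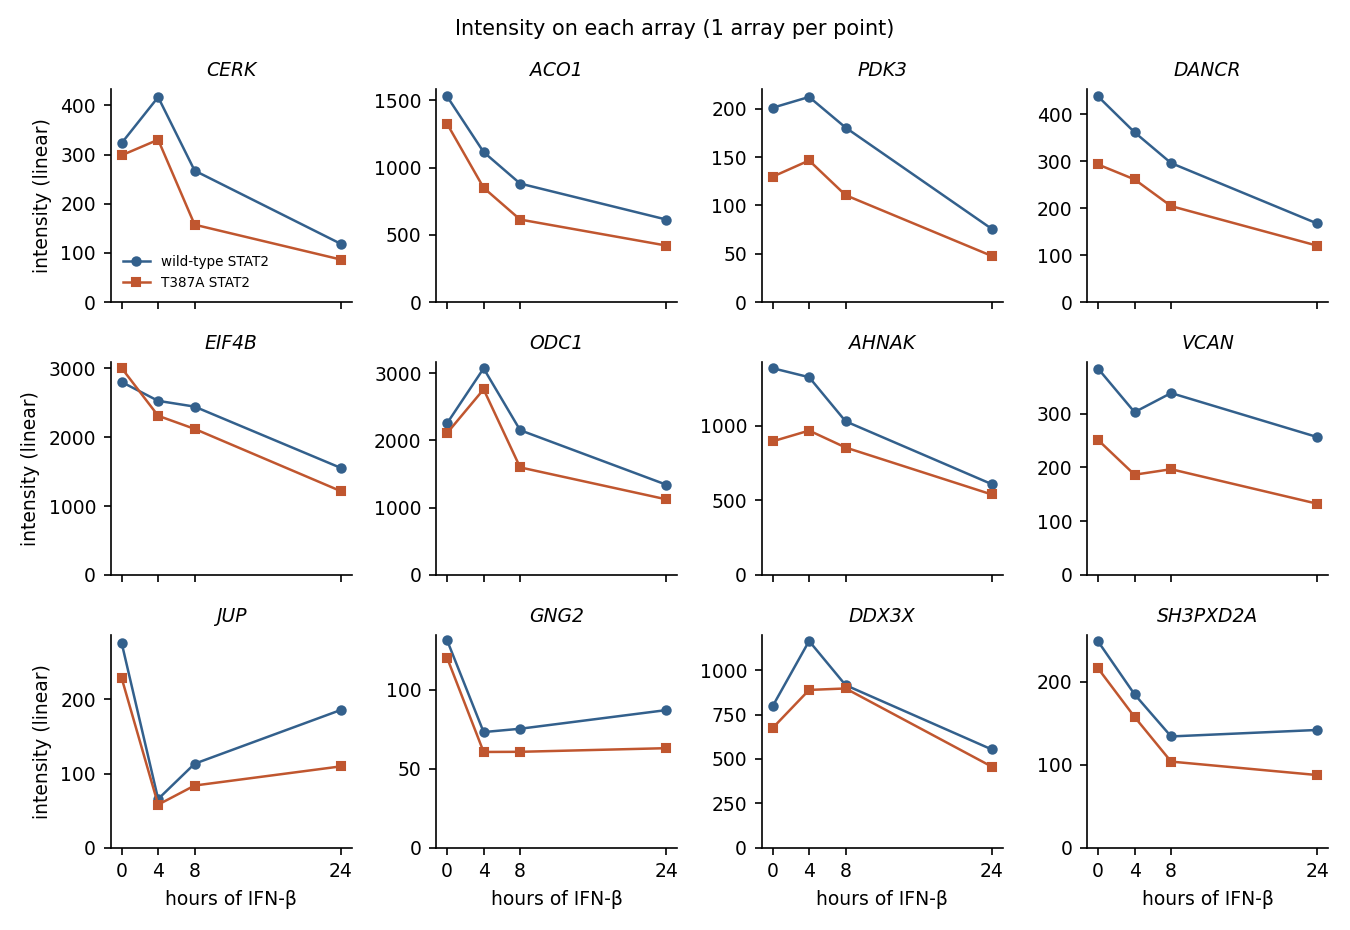
Linear intensity (vertical axis, starting at 0) on each of the 8 arrays for 12 of the genes at 0, 4, 8 and 24 h of IFN-β (horizontal axis), with circles for wild-type and squares for T387A STAT2 and 1 array per point. CERK and ODC1 peak at 4 h, ACO1, DANCR and EIF4B step down with time, and JUP and GNG2 are low from 4 h.

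The 80 were compared with 27 lists of pathway genes, and 69 of the 80 were in none of them. Of the other 11, FBN2 and VCAN were matrix genes and RPS23 and RPL37 ribosomal. The single members were PTPN14 among YAP-TEAD and serum response targets, JUP among junction genes, WNT5A in the Wnt and Notch list, CERK among sphingolipid and phospholipid enzymes, PDK3 in the glycolysis and pyruvate list, SLC12A2 among transporters and GNG2 in the G protein list. In the fits described next, 0 genes of any of the 27 lists passed the adjusted threshold in either direction in either comparison. Of 26 glycolysis and pyruvate genes at 100 or more, PDK3 was the only one that met the rule, and the medians of the 26 at 24 h were 0.036 and -0.12. CERK was likewise the only one of 11, with medians of -0.092 and -0.15.

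The ratio and the minimum that chose the genes used 0 h and 24 h values, and the 4 h and 8 h arrays entered the choice through the selection of each gene's brightest probe, by its mean over all 8 arrays. The difference between 4 h and 8 h could therefore be tested. Its spread, however, was estimated from all 8 arrays, the 0 h and 24 h arrays included. In limma's fit of time and line over 13656 genes, 0 genes passed an adjusted p of 0.05 for 8 h minus 4 h, so percent called was 0, and no member passed either. At an unadjusted p under 0.05, 17 of the 80 were lower at 8 h (21.2%, beside 4.31% of all genes tested) and 1 was higher (1.25%, beside 5.54%). The genes tested include genes dimmer than the minimum asked of the 80. With a floor at 100, which left 6335 genes, 21 were lower (26.2%, beside 8.65%) and 4 higher (5%, beside 8.57%). With only the 4 h and 8 h arrays fitted, 15 were lower (18.8%, beside 5.7%) and 3 higher (3.75%, beside 6.51%). The median estimate of the 80 was -0.17 on the log2 scale, against -0.016 over the eligible genes and 0 over all tested, and 62 of the 80 were below 0 (77.5%, beside 53.9% of the eligible genes). Read gene by gene without a test, 48 (60%) were lower at 8 h than at 4 h in both lines, beside 36.3% of the eligible genes. The median difference was -0.075 in wild-type and -0.18 in T387A cells, and the difference between the lines was not tested. The count of 17 leaned on the T387A arrays: it was 8 without the 4 h T387A array, beside 6.01% of all genes tested, and 9 without the 8 h T387A array, beside 2.87%. It was 16 without the 0 h array of either line, beside 4.9%, and 22 without the 24 h array of either line, beside 6.04%. The count also fell below 17 without the 4 h or the 8 h wild-type array, though less far than without the T387A arrays. The dependence was thus not on the T387A arrays alone. The median estimate of the 80 was -0.16 without the 4 h and -0.18 without the 8 h wild-type array. Without the 4 h or the 8 h T387A array it was -0.12.

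The 5 members with the smallest p were ODC1, CERK, TBL1XR1, UBL3 and JUP. ODC1 differed by -0.65 ± 0.12 (SE) on the log2 scale, with limma's adjusted p = 0.253. CERK differed by -0.85 ± 0.17 (adjusted p = 0.271), TBL1XR1 by -0.49 ± 0.10 (adjusted p = 0.283) and UBL3 by -0.40 ± 0.10 (adjusted p = 0.329). JUP was the 1 gene in the other direction, at 0.66 ± 0.16 (adjusted p = 0.341). Each of the 5 had the same direction in both lines, which choosing them by the smallest p favours. With only the 4 h and 8 h arrays fitted, limma's adjusted p of the 5 ran from 0.390 (TBL1XR1) to 0.414 (CERK). The size for JUP depended on the processing, at 0.091 with a floor at 100, under which its dimmest values fall, and 0.22 with the mean of its probes. The estimate for CERK was -0.45 with the mean of its probes.

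The mean difference between the lines was the other quantity tested. On the 4 h and 8 h arrays alone, 15 of the 80 were lower in T387A cells at an unadjusted p under 0.05 (18.8%, beside 5.17% of all genes tested) and 3 were higher (3.75%, beside 5.43%). The median of the 80 was -0.16. Read without a test, T387A lay below wild type at 4 h in 56 of the 80, beside 2745 of the 5550 eligible genes. At 8 h it did so in 63, beside 2985. For T387A minus wild type over all 4 times, 0 of 13656 genes passed limma's adjusted p of 0.05 (percent called 0), members included. At an unadjusted p under 0.05, 24 of the 80 were lower in T387A cells (30%, beside 5.21% of all genes tested), and PRR11 and MSN were higher (2.5%, beside 5.74%). With a floor at 100, 26 were lower (32.5%, beside 8.35% of 6335 genes) and 2 higher (2.5%, beside 8.73%). The estimate over all 4 times includes the 0 h and 24 h values that chose the genes, so nothing is read from it or its counts. Its median over the 80 was -0.14, against -0.0019 over the eligible genes, and 65 of the 80 were below 0 (81.2%, beside 50.6%). T387A lay below wild type at both 4 h and 8 h in 50 genes (62.5%, beside 32.4% of the eligible genes). In a fit without time, 3 were lower (3.75%, beside 3.07% of all genes tested), with the median still at -0.14 and 65 below 0. That fit leaves the change over time in the residual. The genes were chosen for such a change, so nothing is read from its count. The median difference between the lines over the 80 was -0.13 at 4 h and -0.19 at 8 h, against 0.0014 and -0.017 over the eligible genes.

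PDK3 differed by -0.63 ± 0.07 (SE) on the log2 scale, with limma's adjusted p = 0.285. VCAN differed by -0.76 ± 0.08 (adjusted p = 0.285), DANCR by -0.52 ± 0.06 (adjusted p = 0.285), AHNAK2 by -0.55 ± 0.08 (adjusted p = 0.307) and BMP6 by -0.43 ± 0.08 (adjusted p = 0.307). In these 5 genes all 4 T387A arrays were below the wild-type arrays of their times. Choosing genes by the smallest p favours such agreement, so nothing is read from it. On the 4 h and 8 h arrays alone the estimates were -0.62 for PDK3, -0.74 for VCAN, -0.50 for DANCR, -0.62 for AHNAK2 and -0.38 for BMP6, each with limma's adjusted p = 0.469. The estimate for AHNAK2 was -0.29 with the mean of its probes, and that for BMP6 was -0.28 with a floor at 100. The other probes of AHNAK2 read 77.2 or less on every array.

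**Figure D3:**
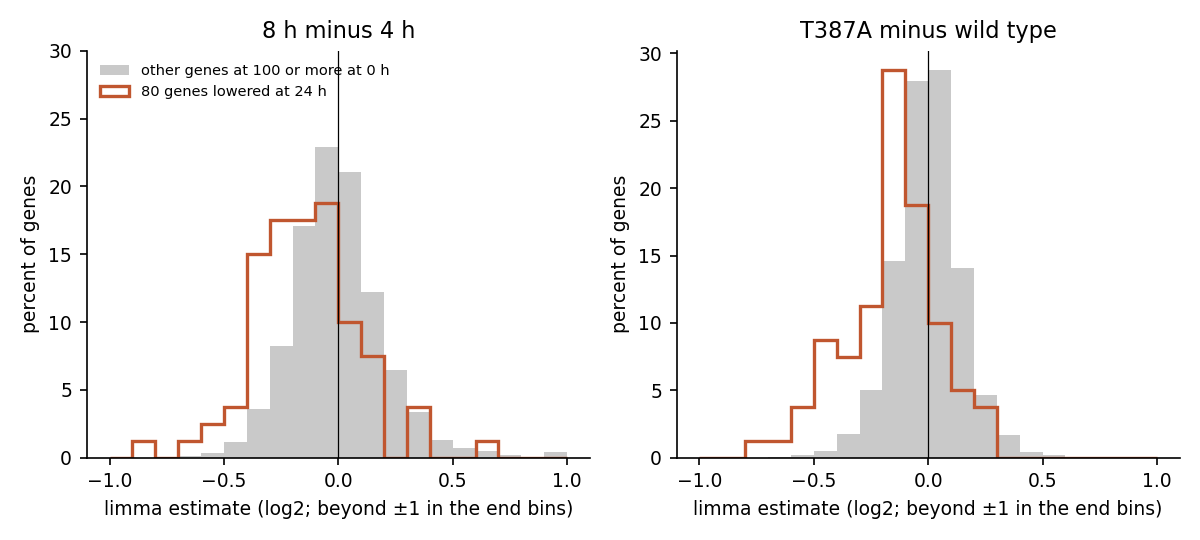
Distribution of limma's estimates on the log2 scale (horizontal axis, values beyond 1 in either direction placed in the end bins) as percent of genes (vertical axis), for 8 h minus 4 h on the left and T387A minus wild type on the right. The outline is the 80 genes, with medians of -0.17 and -0.14, and the grey bars are the other 5470 eligible genes. The estimates on the right include the 0 h and 24 h values that chose the genes, so nothing is read from them.

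The log2 difference between 24 h and 0 h was lower in T387A than in wild-type cells for 63 of the 80 (78.8%, beside 58.7% of the eligible genes), with a median difference of -0.17 against -0.062. The rule used these values, so nothing is read from them. The widest differences were those of RPS23 (-0.87), WNT5A (-0.79), PRKCA (-0.64), PPM1L (-0.59) and SH3PXD2A (-0.49). AHNAK (0.46), FRMD4A (0.38) and ITPR1 (0.35), chosen after their values were seen, went the other way. LPP, GRHPR, PLCB1, ASCC3 and HEG1 differed least between the lines, by at most 0.015.

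**Figure D4:**
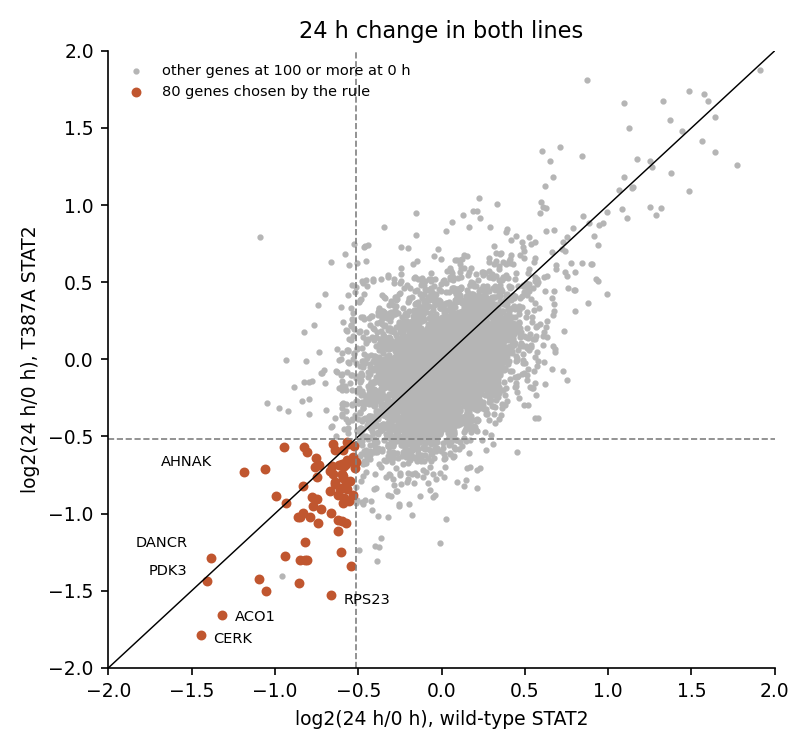
Log2 24 h/0 h ratio in wild-type (horizontal axis) and T387A cells (vertical axis) for the eligible genes, with the 80 chosen genes in colour, the 0.7 thresholds dashed and the line of equal change solid. Most of the 80 (63) lie below the solid line, and 19 other genes lie beyond the axes, which end at -2 and 2.

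The threshold cuts through a continuous range. Just inside it were MSN, EIF3F and SGO2, with wild-type ratios of 0.699, 0.698 and 0.697. Just outside were TTYH3, ATP2B4 and IPO4, with wild-type ratios of 0.701, 0.703 and 0.708 and T387A ratios of 0.564, 0.533 and 0.691. The higher of the 2 ratios was over 0.6 in 56 of the 80, and 160 other eligible genes had a higher ratio over 0.7 and up to 0.8.

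More than 1 probe was present for 30 of the genes, which gave 43 further probes, but 9 of these were at 100 or more at 0 h in both lines. Of the 9, 3 were at 0.7 or less in both lines, those of ABCC4, FAT1 and LPP (33.3%, beside 1.9% of 1208 such probes of eligible genes). The probe of FAT1 read 0.455 and 0.491 and that of LPP 0.528 and 0.467. In 8 of the 9 the level at 24 h was below 0 h in both lines, with BRI3BP (1.06 and 1.18) as the exception. The median ratios of the 9 were 0.701 and 0.683, against 0.953 and 0.944 over the 1208. These probes were read on the same RNA and are no replicate of it.

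The 80 genes tended to be long. Their median genomic span, from start to end of the gene in the RefSeq annotation of GRCh38.p14, was 68.6 kb, against 26.0 kb over the eligible genes and 15.5 kb over the 93 genes of the mirrored rule. A span of 100 kb or more was found in 33 of the 80 (41.2%), in 14.2% of the eligible genes and in 10.8% of the raised ones. This property was looked at after the values were seen. The share of eligible genes that met the rule was 0.811% for spans under 10 kb, 0.599% from 10 to 20 kb, 0.957% from 20 to 50 kb, 1.8% from 50 to 100 kb, 2.67% from 100 to 200 kb and 7.28% above that (19 of 261 genes). The longest were TENM3, SUGCT, KCNMA1, PLCB1, LRBA and LPP.

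The share was larger among long genes at every 0 h level. Among eligible genes with a mean 0 h intensity of 100 to 200 the rule took 5.05% of those of 100 kb or more and 1.7% of shorter ones. The shares were 2.52 and 0.826% from 200 to 500, 5.98 and 0.881% from 500 to 1000, and 5.33 and 0.638% above 1000. Over the 261 eligible genes of 200 kb or more, 19 of them among the 80, the median log2 difference from 0 h was slightly below 0. It was -0.15 at 4 h, -0.14 at 8 h and -0.12 at 24 h in wild-type cells. In T387A cells it was -0.17, -0.20 and -0.21. The 525 genes from 100 to 200 kb had medians of -0.052, -0.066 and -0.056 in wild-type cells. Their T387A medians were -0.065, -0.10 and -0.14. By role, 8 of 10 signalling genes and 6 of 9 cytoskeletal genes were 100 kb or longer, but 1 of 8 translation and RNA genes. The part of gene length in these results was not tested.

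**Figure D5:**
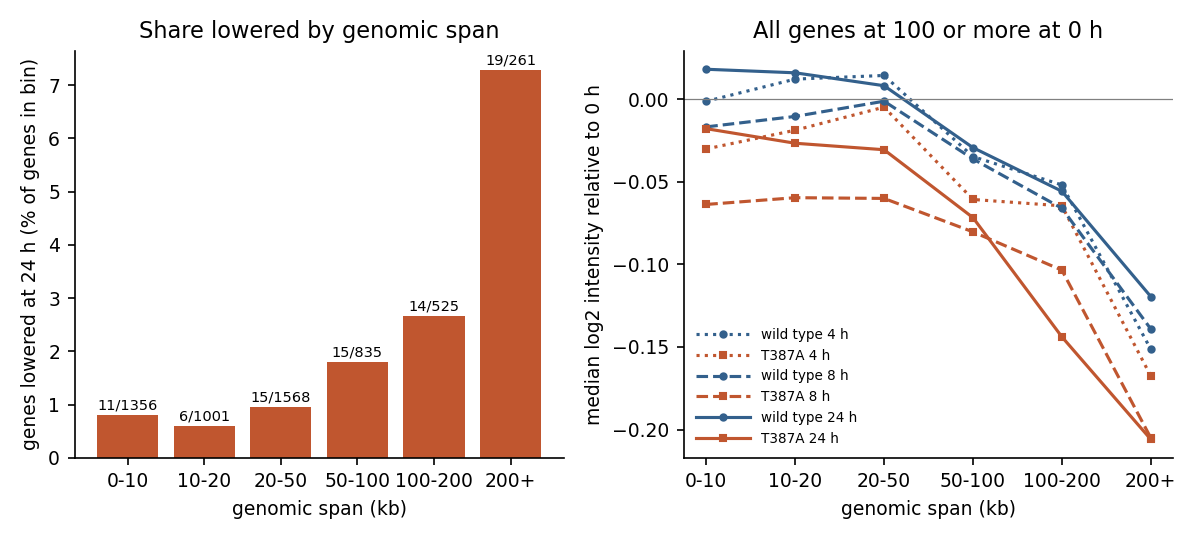
Left, percent of eligible genes that were lowered at 24 h (vertical axis) by genomic span in kb (horizontal axis), with counts above the bars, from 0.811% under 10 kb to 7.28% at 200 kb or more. Right, median log2 intensity relative to 0 h (vertical axis) over all eligible genes of each span, by line and time.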

How the data were processed

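The values are linear bead-array intensities that the authors deposited in 1 table of 8 arrays. Per the submitters' processing notes GenomeStudio was used. Which version and which background and normalization settings were chosen is not given in the sources used here. Background subtraction is visible in the deposited intensities (28.6% at or below 0), as are equal distributions (78.6% of ranks identical on all arrays), so no further scaling was applied. Groups came from sample titles, 1 array each, and 0 columns were left unmapped.

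Of 47315 probes, 30111 carried 1 gene symbol, 8 several and 17196 none. The brightest probe stood for each of 20045 genes. Values under 10.7 were set to 10.7 before log2. Genes above that floor on at least 1 array (13656) were fitted in R 4.3.3 with limma 3.58.1 (lmFit, eBayes, Benjamini-Hochberg) as time (4 levels) plus line. The fit was tested on simulated data. Tables and figures used Python 3.11.15, pandas 2.3.3, numpy 2.4.6 and matplotlib 3.10.9.

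The ratio and minimum that chose the genes used 0 h and 24 h. The 4 h and 8 h arrays entered only through the brightest probe, so 8 h against 4 h was tested. T387A against wild type was also tested, on the 4 h and 8 h arrays alone and over all 4 times. The fit over all 4 times includes the values that chose the genes. Whether arrays came from separate cultures is not stated, so p-values reflect only differences among these arrays, which may be technical. All else is description, beside the share over 5550 eligible genes. The genes, lists and alternatives were chosen with earlier results of these data known. Genes named were the 12 with the lowest 24 h change, the 8 lowest and 4 highest at 4 h, the 10 brightest, the 5 with the smallest p per comparison, 3 either side of the threshold, list members, and the 5 with the most and the 5 with the least difference between lines. Others were named for their role after their values were seen, as were the role groups. Alternatives were other floors, filters, probe summaries, scalings, thresholds and omission of single arrays.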

Additional observations from a re-analysis of the deposited data

How the results depend on the processing

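No paired analysis was possible because each line and time has 1 array, so no replicate number could be fitted as a block. The fit of time plus line already compares times within a line and lines within a time. Without time 3 of the 80 were lower in T387A cells at an unadjusted p under 0.05, from 24. Leaving time out puts the change that chose these genes into the residual, so nothing is read from that lower count. For 8 h minus 4 h, the count of all genes past the adjusted threshold of limma was 0, and it was 66 with a floor at 100, 90 with an offset of 16 and no floor, 5 without the filter on dim genes and 8 with a trended and robust prior. It stayed between 0 and 0 when single arrays were left out. Of the 80 genes, 1 passed (ODC1, floor at 100, estimate -0.65). For T387A minus wild type the count of 0 became 1 with a doubled floor, 10 with a floor at 100, 7 with the offset, 1 with the filter at 4 arrays, 2 without the filter and 2 with the trended prior. Among the 80, 2 passed with the floor at 100 (DANCR -0.52 and VCAN -0.76) and 1 with the offset (VCAN -0.66). The cause of these differences was not tested. Of the 5 genes named in each comparison, none had an estimate that reversed under these settings. Sizes that moved by over 1.5 times were those of JUP (0.66 to 0.091 with a floor at 100 and 0.22 with the probe mean), CERK (-0.85 to -0.45) and AHNAK2 (-0.55 to -0.29) with the probe mean, and BMP6 (-0.43 to -0.28) with a floor at 100. The other probes of JUP, CERK and AHNAK2 read below 100 on every array.

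The rule gave 24 genes at a ratio of 0.6, 238 at 0.8, 137 with a 0 h minimum of 50 and 46 with 200. With the mean of a gene's probes 61 genes met it, 56 of them shared with the 80. After cyclic loess 75 met it, all shared with the 80, and after scaling 82 met it, of which 80 were shared. All 80 read lower at 24 h in both lines after cyclic loess or scaling, 78 with the probe mean, which asks less than the rule does. The count at 4 h of 5 became 17 at a ratio of 0.8 and 2 at 0.6, and that of other probes became 6 at 0.8. Signal over background limits the dimmest genes: the lowest 24 h value of the 80 was 44.3 (PPM1L in T387A cells, 121 at 0 h), above the floor of 10.7.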
